A study of Homo sapiens with 12 samples.

Results

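The MYC and MAX network is a set of 10 genes, MYC, MYCL, MYCN, MAX, MXD1, MXD3, MXD4, MNT, MLX and MGA, taken by name from the 17818 genes of the deposited table. All 10 were found there, and 9 reached at least 1 TPM (a level that the authors scaled to depth and transcript length) in at least 1 group of each comparison. MYCN was the exception. Messenger RNA was measured in 2 human colorectal cancer cell lines, SW480 and HCT116, each grown in DMEM with serum. The groups were SW480 overexpressing USP51 (genotype USP51-OE), SW480 with a control vector (NC), HCT116 overexpressing USP51, and HCT116 with a control vector, with 3 libraries each by the labels. USP51 is a ubiquitin-specific protease, and the labels give neither the promoter of the construct nor whether a clone or a pool of cells was used.

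The values are the authors' means of each group, because the columns of single libraries carry codes that match no label. Each difference therefore has no replicate check, no SD and no p-value. The columns are named by line with the letter E or C, which was read as overexpression or control. USP51 itself stood at 25.7 TPM in SW480 with USP51 and 0.513 TPM in SW480 NC, and at 40.8 TPM in HCT116 with USP51 and 0 TPM in HCT116 NC. The group means summed to between 15506686 and 15920306 estimated counts. Of 8 epithelial markers, the sum was 6185 to 11474 TPM over the 4 groups. However, KRT20 was at most 1.45 TPM in all 4 groups, and VIL1 at most 0.03 TPM in both HCT116 groups. All 6 leukocyte markers summed to 5.01 to 7.95 TPM, mostly CD68, with PTPRC at most 0.03 TPM. The 6 of 7 fibroblast markers found summed to 1.51 TPM in SW480 with USP51 and 1.77 TPM in SW480 NC, and to 15.4 TPM in HCT116 with USP51 and 10.1 TPM in HCT116 NC. COL1A1 made up most of the HCT116 sums, and DCN was at most 0.01 TPM. The part of such cells in the results was not tested. In a bulk sample, fewer cells that express a gene and less RNA per cell cannot be told apart.

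Proteins of this network carry a basic helix-loop-helix-leucine zipper and bind DNA as pairs. MYC, MYCN and MYCL pair with MAX and mostly activate growth genes at the E-box, the sequence CACGTG. MXD1, MXD3, MXD4, MNT and MGA also pair with MAX and repress at such sites, MXD proteins and MNT through SIN3 and histone deacetylases and MGA through a Polycomb complex. MLX is a second hub, which pairs with the glucose-responsive factors MLXIP (MondoA) and MLXIPL (ChREBP) and with some MXD proteins and MNT. In colorectal cancer MYC is a well-known target of WNT signalling, which mutations keep active in both of these lines.

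The E-box, searched as CACGTG (the same on both strands), was present in the 250 bases before the gene start of 3 of the 9 members that had a promoter window in the RefSeq table of GRCh38.p14. Of all 27305 genes with a window of that length, measured here or not, 7.73% held it in at least 1 window. Among the genes with a window that were measured in SW480, 1140 held it and 8826 did not, a larger share. The 3 windows are printed because they hold the network's own binding element. The E-box is in capitals and each sequence reads 5′ to 3′ on the strand of its gene. A match is a description of the sequence and not a shown binding site. The windows of MXD4 (chr4:2262110-2262359, minus strand), MNT (chr17:2401061-2401310, minus strand) and MLX (chr17:42566850-42567099, plus strand) are as follows.
MXD4: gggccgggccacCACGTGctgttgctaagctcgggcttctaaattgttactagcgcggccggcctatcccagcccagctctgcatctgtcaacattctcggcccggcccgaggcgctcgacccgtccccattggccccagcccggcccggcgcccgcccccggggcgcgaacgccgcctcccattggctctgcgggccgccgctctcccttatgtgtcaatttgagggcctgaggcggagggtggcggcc
MNT: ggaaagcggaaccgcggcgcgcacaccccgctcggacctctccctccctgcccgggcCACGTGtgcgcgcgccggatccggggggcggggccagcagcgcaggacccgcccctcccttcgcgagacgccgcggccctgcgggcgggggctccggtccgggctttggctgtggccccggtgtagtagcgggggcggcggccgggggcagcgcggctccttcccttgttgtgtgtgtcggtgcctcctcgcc
MLX: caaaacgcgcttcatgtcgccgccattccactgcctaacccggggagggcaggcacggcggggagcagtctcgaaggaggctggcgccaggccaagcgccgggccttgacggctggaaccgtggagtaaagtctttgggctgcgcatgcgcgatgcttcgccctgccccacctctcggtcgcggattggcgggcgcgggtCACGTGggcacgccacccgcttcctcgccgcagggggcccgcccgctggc
The element began 238 bases before the start of MXD4, 193 bases before that of MNT and 50 bases before that of MLX.

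Which of these genes differed with USP51 was asked in each line separately. In SW480 the gene that stood out was MYC itself, higher with USP51, while MXD3 was lower and MXD4 higher on few counts. Its partner MAX and the MLX hub differed little. In HCT116 MYC was slightly lower with USP51, and the members that differed most were the weakly expressed MYCL and MXD1. Ratios are log2((TPM with USP51 + 1)/(TPM with NC + 1)), a scale that understates differences of genes with low values. Past a size of 1.5-fold on that scale, no member of the 9 measured was counted in either line. In SW480 0.534% of all 12175 measured genes were at least 1.5-fold higher and 0.879% lower, and in HCT116 1.96% of 12393 were higher and 0.145% lower. At a log2 ratio of at least 0.32 in size, 2 members were higher in SW480 (2.5% of all genes) and 1 was lower (6.25%). In HCT116 2 members were higher (8.58% of all genes) and none lower (1.11%).

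MYC (NCBI gene 4609, chromosome 8, 127735434 to 127742951, GRCh38) encodes the activator at the centre of the network. It stood at 233 TPM in SW480 with USP51, against 156 TPM in SW480 NC. That is a log2 ratio of 0.57, or 1.49-fold, just under the 1.5-fold size, which it passed in CPM (log2 ratio 0.62), with median-of-ratios factors (0.64) and in FPKM (0.62). In counts per total the ratio was 1.54, with a 95% exact interval of 1.49 to 1.59. Such intervals, given in parentheses from here on, take each mean for a single library's count, so they hold counting error and no replicate spread. Of the 12175 genes measured, MYC had the 70th highest log2 ratio, and among the 1521 genes that reached 100 TPM in either SW480 group it had the 4th highest. This position among abundant genes was looked up after the value of MYC was seen. In HCT116, MYC was at 182 TPM with USP51 and 197 TPM in NC, a count ratio of 0.909 (0.879 to 0.940). Its log2 ratio of -0.11 there was the 1644th lowest of 12393 genes, so many genes lay lower. The direction thus differed between the lines, and the log2 ratio was 0.69 higher in SW480 than in HCT116. A difference of at least 1.5-fold in that direction was found for 0.459% of the 11332 genes measured in both lines. The difference between the lines was not tested. Both deposited MYC transcripts followed this pattern. The main one, NM_002467.6, was at 201 TPM in SW480 with USP51 and 134 TPM in SW480 NC, and the minor one, NM_001354870.1, at 32.3 and 22.5 TPM in the same 2 groups.

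The paralogs of MYC contributed little message. MYCL, which encodes L-Myc, was at 3.63 TPM in SW480 with USP51 and 3.72 TPM in SW480 NC. In HCT116 it was at 4.84 TPM with USP51 and 3.65 TPM in NC, a count ratio of 1.31 (1.01 to 1.70). MYCN, the gene of the neuroblastoma-associated N-Myc, was at 0.11 TPM in SW480 with USP51 and 0.0367 TPM in SW480 NC, means of 2 and 0.667 counts. It had 0 counts in both HCT116 means, which at a floor of 3 counts allows a low level that could not be detected. MYC thus made up nearly all of the summed MYC, MYCL and MYCN level in each of the 4 groups.

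MAX (NCBI gene 4149, chromosome 14, 65006101 to 65102695), the shared partner, was at 46.6 TPM in SW480 with USP51 and 47.9 TPM in SW480 NC, and at 33.2 TPM in HCT116 with USP51 and 33.1 TPM in HCT116 NC. Its count ratio was 1.02 (0.923 to 1.12) in SW480 and 0.985 (0.875 to 1.11) in HCT116, so no difference with USP51 was detectable at this depth. The summed MYC family level per MAX level was 5.09 in SW480 with USP51 and 3.34 in SW480 NC. In HCT116 that quotient was 5.63 with USP51 and 6.05 in NC. The spans of MAX and FNTB on the genome, introns included, overlap for 56550 bases. The overlap of their exons was not computed. Whether counting used strand is not given, so some MAX reads could belong to FNTB, by an amount not known.

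**Figure D1:**
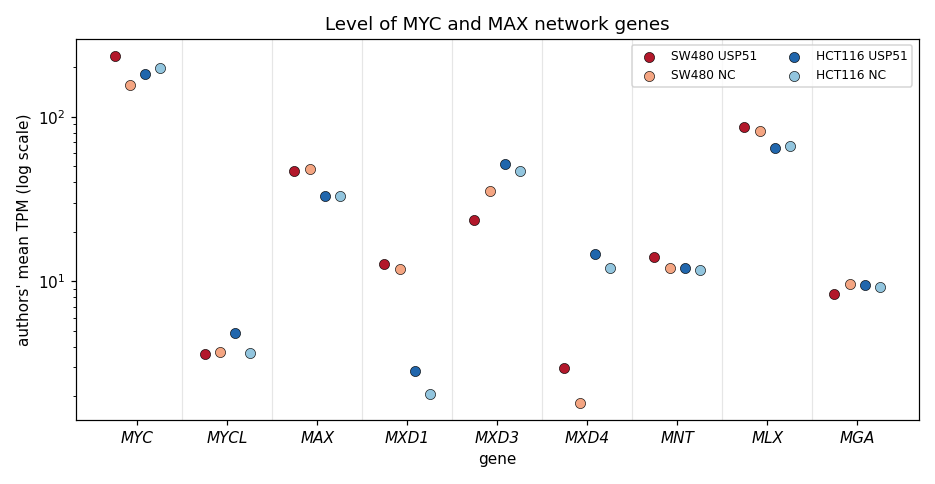
Level of 9 network genes in the 4 groups, as the authors' mean TPM on a log axis, with 1 point per group and no error bars because only means were used. MYC lies highest at 156 to 233 TPM, MXD1 and MXD4 separate the lines in opposite directions, and MYCN, at most 0.11 TPM, is not drawn.

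The repressor partners of MAX did not move as a group in SW480. MXD3 (NCBI gene 83463, chromosome 5, 177305499 to 177312752), an MXD gene known for expression in cycling cells, was the most abundant of them in both lines. It was at 23.6 TPM in SW480 with USP51 and 35.2 TPM in SW480 NC, a log2 ratio of -0.55 and a count ratio of 0.732 (0.618 to 0.866). Most of this lay in the transcript NM_031300.4, at 20.5 TPM with USP51 and 32.1 TPM in NC, whereas NM_001142935.2 stayed at 3.12 and 3.13 TPM. In HCT116 MXD3 was at 51.8 TPM with USP51 and 46.5 TPM in NC, a count ratio of 1.07 (0.933 to 1.22). The log2 ratio in SW480 was 0.71 below that in HCT116 (difference of -0.71), a direction and size of at least 1.5-fold met by 3.95% of genes. The spans of MXD3 and PRELID1, introns included, overlap for 1451 bases, and the overlap of exons was not computed. PRELID1 is far more abundant at 730 TPM in SW480 with USP51 and 698 TPM in SW480 NC. The MXD3 level is thus uncertain where reads of the overlap were split.

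MXD4 and MXD1 lay above NC in both lines, MXD4 in SW480 and MXD1 in HCT116 on few counts. MXD4 (NCBI gene 10608, chromosome 4, 2247432 to 2262109), linked to differentiation and cell cycle exit, was at 2.98 TPM in SW480 with USP51 and 1.84 TPM in SW480 NC, from means of 118 and 69 counts. Its count ratio of 1.68 (1.24 to 2.29) was the largest of the 9 measured members in SW480. In HCT116 it was at 14.6 TPM with USP51 and 12.0 TPM in NC, with a count ratio of 1.19 (1.05 to 1.35). MXD1, the founding MXD gene, was at 12.8 TPM in SW480 with USP51 and 11.9 TPM in SW480 NC, a count ratio of 1.11 (1.001 to 1.24). In HCT116 it was at 2.84 TPM with USP51 and 2.07 TPM in NC, a count ratio of 1.35 (1.05 to 1.73), from means of 152 and 115 counts.

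MNT and MGA, the broadly expressed repressors, differed less than MXD3 and MXD4 in SW480. MNT was at 14.0 TPM in SW480 with USP51 and 12.0 TPM in SW480 NC, a count ratio of 1.18 (1.06 to 1.32). With curated transcripts alone, of which MNT has 1 among 6 deposited, its log2 ratio of 0.20 was 0.00. In HCT116 MNT was at 12.1 TPM with USP51 and 11.8 TPM in NC, a log2 ratio of 0.03, which was -0.11 with curated transcripts alone. MGA, which also carries a T-box domain, was at 8.36 TPM in SW480 with USP51 and 9.68 TPM in SW480 NC, a count ratio of 0.878 (0.80 to 0.963). Of its 19 deposited transcripts 2 are curated, and with those alone its log2 ratio of -0.19 in SW480 was -0.09. In HCT116 MGA was at 9.54 TPM with USP51 and 9.25 TPM in NC, a count ratio of 1.01 (0.922 to 1.11).

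Set against the MYC family, the summed level of the 5 repressor genes was lower in SW480 with USP51, and MXD3, whose level is uncertain for its overlap with PRELID1, set the direction of that sum. MXD1, MXD3, MXD4, MNT and MGA summed to 61.8 TPM in SW480 with USP51 and 70.6 TPM in SW480 NC. The 4 genes without MXD3, a sum added after the values were seen, came to 38.1 TPM with USP51 and 35.5 TPM in NC. The quotient of the sum of all 5 genes and the sum of MYC, MYCL and MYCN was 0.261 with USP51 and 0.441 in NC. In HCT116 the 5 genes summed to 90.9 TPM with USP51 and 81.7 TPM in NC, and the quotient was 0.486 with USP51 and 0.408 in NC. The quotient was thus lower with USP51 in SW480 and higher in HCT116. Without MXD3 it was 0.161 in SW480 with USP51 and 0.222 in SW480 NC, and 0.209 in HCT116 with USP51 and 0.176 in HCT116 NC. It describes messages only and was not tested.

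**Figure D2:**
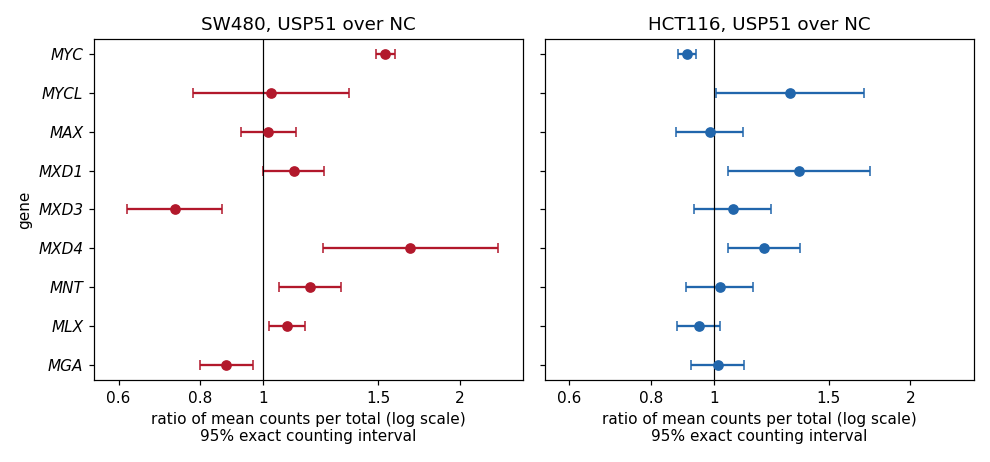
Ratio of the authors' mean counts per total count, USP51 over NC, for 9 network genes in SW480 (left) and HCT116 (right), on a log axis with 95% exact counting intervals as bars. In SW480 MYC lies at 1.54 and MXD3 at 0.732, and in HCT116 MYC lies at 0.909, while MAX is near 1 in both lines.

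MLX (NCBI gene 6945, chromosome 17, 42567100 to 42573203), the hub of the parallel branch, was the most abundant member after MYC. It was at 86.6 TPM in SW480 with USP51 and 82.1 TPM in SW480 NC, a count ratio of 1.09 (1.02 to 1.16). In HCT116 it was at 64.3 TPM with USP51 and 66.3 TPM in NC, a count ratio of 0.947 (0.879 to 1.02). The span of MLX, introns included, overlaps for 894 bases that of PSMC3IP, a gene at 28.2 TPM in SW480 with USP51 and 28.5 TPM in SW480 NC. Any reads of the overlap could belong to either. MLXIPL, the gene of its partner ChREBP, was at 8.41 TPM in SW480 with USP51 and 5.78 TPM in SW480 NC, a count ratio of 1.5 (1.24 to 1.82). In HCT116 MLXIPL was at 33.7 TPM with USP51 and 31.0 TPM in NC. The other partner gene, MLXIP, and the MXD paralog MXI1 had log2 ratios under 0.32 in size in both lines. The arrestin-domain gene TXNIP, a classical target of MLX with MondoA, was at 19.2 TPM in SW480 with USP51 and 14.7 TPM in SW480 NC, and was listed at 0 in both HCT116 groups. The list of 4 such targets had no common direction in SW480, where 2 lay above NC with a median log2 ratio of -0.01. That median was above 0 under 3 of 7 alternatives and at most 0.04. HBP1 was at 11.4 TPM in SW480 with USP51 and 11.8 TPM in SW480 NC, and ARRDC4 at 2.89 and 3.54 TPM in the same 2 groups. In HCT116 2 of the 3 measured (all but TXNIP) lay above NC with a median of 0.33. Over all genes 38.8% lay above NC in SW480 (median -0.04) and 60.8% in HCT116 (median 0.04). The count of 2 of 3 in HCT116 was thus near the share of all genes. HBP1 was at 13.7 TPM in HCT116 with USP51 and 10.4 TPM in HCT116 NC, and ARRDC4 at 2.63 and 1.89 TPM in the same 2 groups. ARRDC2 had a log2 ratio under 0.32 in size in both lines.

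MAX and MLX are each read into several protein forms, and the deposited rows separate them. The most abundant MAX transcripts, NM_002382.5 and NM_145112.3, code for 160 and 151 residues and differ by a coding exon of 27 bases. The exon (chr14:65101546-65101572, minus strand, exon 2) is shown in capitals between 15 bases of its neighbours, read from the GENCODE 29 transcript matched to NM_002382 without its version. Below it stands the 90-base exon 3 of MLX (chr17:42568470-42568559, plus strand), which NM_198204.2 includes and NM_198205.1 skips, matched in the same way.
MAX: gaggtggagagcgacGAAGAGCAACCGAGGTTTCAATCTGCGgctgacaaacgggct
MLX: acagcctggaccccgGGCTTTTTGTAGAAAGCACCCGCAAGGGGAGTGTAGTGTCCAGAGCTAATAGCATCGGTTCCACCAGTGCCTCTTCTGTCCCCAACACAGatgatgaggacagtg
The MAX transcript with the exon was at 22.9 TPM in SW480 with USP51 and 19.9 TPM in SW480 NC, and the transcript without it at 17.7 TPM with USP51 and 21.3 TPM in NC. Their quotient was 1.29 in SW480 with USP51 and 0.935 in SW480 NC, and 1.67 in HCT116 with USP51 and 1.76 in HCT116 NC. The form with the exon led in 3 of the 4 groups, and the form without it in SW480 NC. The MLX form with its exon led in all 4 groups, at 3.78 times the other in SW480 with USP51, 3.47 times in SW480 NC, 3.54 times in HCT116 with USP51 and 3.93 times in HCT116 NC. Reads were divided among transcripts by the authors' tool, and only those that touch the exon or its junctions separate the forms.

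**Figure D3:**
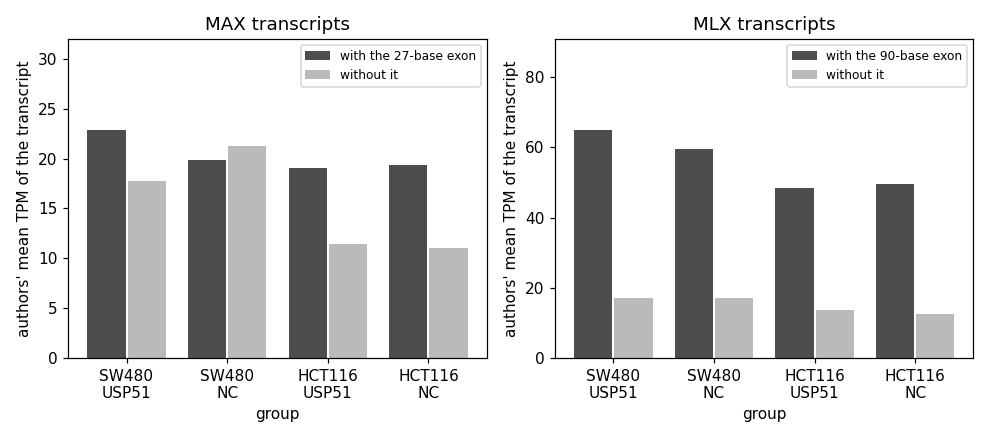
The authors' mean TPM of the MAX transcripts with and without the 27-base exon (left) and of the MLX transcripts with and without the 90-base exon (right) in the 4 groups, as bars from 0 with no error bars. In SW480 NC the MAX form without the exon is higher at 21.3 against 19.9 TPM, and in the other groups the form with it is higher.

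The level of the members in the 2 lines without the construct was compared as SW480 NC over HCT116 NC. MXD1 and MXD4 differed most of the 9 members, in opposite directions. MXD1 was at 11.9 TPM in SW480 NC and 2.07 TPM in HCT116 NC, a count ratio of 5.79 (4.75 to 7.13). MXD4 was at 1.84 TPM in SW480 NC and 12.0 TPM in HCT116 NC, a count ratio of 0.153 (0.117 to 0.198). These were the members past 1.5-fold, 1 higher and 1 lower, where 22.6% of 13033 genes were higher and 27% lower, so the members' share was not above that of all genes. MXD1 was thus the more abundant of the pair in SW480 and MXD4 in HCT116, both with and without USP51. MAX was at 47.9 TPM in SW480 NC and 33.1 TPM in HCT116 NC, a log2 ratio of 0.52, and MYC at 156 TPM in SW480 NC and 197 TPM in HCT116 NC, a log2 ratio of -0.33. MXD3 was at 35.2 TPM in SW480 NC and 46.5 TPM in HCT116 NC, a log2 ratio of -0.39. MLX had a log2 ratio of 0.30, and MNT, MGA and MYCL had log2 ratios of 0.03, 0.06 and 0.02. With curated transcripts alone that of MNT was -0.16 and that of MGA -0.004. The partner genes of MLX were lower in SW480 NC, MLXIP at 10.3 TPM against 25.0 TPM in HCT116 NC and MLXIPL at 5.78 TPM against 31.0 TPM. MXI1 was at 8.22 TPM in SW480 NC and 24.7 TPM in HCT116 NC.

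Ordered by TPM, MYC was first and MLX second in all 4 groups. MYC alone made up 54.0% of the summed level of the members in SW480 with USP51, 43.3% in SW480 NC, 48.5% in HCT116 with USP51 and 51.6% in HCT116 NC. MAX followed them in both SW480 groups, and MXD3 in both HCT116 groups. Which neighbours in this order differ beyond replicate spread cannot be said from means. The genes whose 4 means followed MYC most closely, by Euclidean distance of centred log2(TPM + 1) among 6889 genes of at least 10 TPM in every group, were MISP, ADAP1 and B4GALNT4. Their distances were 0.141, 0.189 and 0.203. MISP, which encodes an actin-binding protein of the mitotic spindle, was at 37.1 TPM in SW480 with USP51, 26.4 TPM in SW480 NC, 33.0 TPM in HCT116 with USP51 and 34.3 TPM in HCT116 NC.

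Genes known to be induced by MYC lay, as a list, slightly above NC in SW480 and slightly below NC in HCT116. Of 25 measured in SW480, 17 lay above NC with a median log2 ratio of 0.05, where 38.8% of all genes lay above NC and the median of all genes was -0.04. In HCT116 4 of 24 lay above NC with a median of -0.10, where 60.8% of all genes did and their median was 0.04. The sign of both medians was the same in CPM, with median-of-ratios factors and in FPKM, and with those factors 21 lay above NC in SW480 and 2 in HCT116. The share of all genes above NC moves with the scaling, and with those factors it was 54.2% in SW480 and 48.7% in HCT116. Nearly all differences were small. The cyclin gene CCND2 was the exception in SW480, at 17.8 TPM with USP51 and 7.32 TPM in NC, a count ratio of 2.51 (2.25 to 2.79), and it was at most 0.0267 TPM in HCT116. LDHA, the lactate dehydrogenase gene that is also a hypoxia target, was the exception in HCT116 at 1490 TPM with USP51 and 1154 TPM in NC. NME1, a nucleoside diphosphate kinase gene picked after its value was seen, was at 961 TPM in SW480 with USP51 and 834 TPM in SW480 NC. The ribosome assembly gene NOP16, picked likewise, was at 133 TPM in HCT116 with USP51 and 161 TPM in HCT116 NC.

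Genes known to be repressed by MYC showed no common direction by sign, but the few past 1.5-fold were all higher with USP51. Of 10, 4 lay above NC in SW480, with a median of -0.03, and 5 in HCT116, with a median of 0.06. Over all genes 38.8% lay above NC in SW480 (median -0.04) and 60.8% in HCT116 (median 0.04), so count and medians were near those of all genes. The median in SW480 changed sign under 3 of 7 alternatives and was at most 0.04, and 6 of the 10 then lay above NC. Past 1.5-fold, 2 of the 10 were higher and 0 lower in each line. Over all genes 0.534% were higher and 0.879% lower in SW480, and 1.96% and 0.145% in HCT116. CEBPA, a differentiation factor gene, was at 5.29 TPM in SW480 with USP51 and 2.79 TPM in SW480 NC. The cyclin-dependent kinase inhibitor gene CDKN1C was at 22.3 TPM in SW480 with USP51 and 14.2 TPM in SW480 NC, and at 14.5 TPM in HCT116 with USP51 and 8.83 TPM in HCT116 NC. NDRG1, which hypoxia also induces, was at 84.3 TPM in SW480 with USP51 and 65.8 TPM in SW480 NC, and at 157 TPM in HCT116 with USP51 and 71.9 TPM in HCT116 NC.

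Genes with an E-box in a promoter window had medians close to those of genes without. In SW480 the median log2 ratio was -0.03 over 1140 measured genes with CACGTG in a window and -0.04 over 8826 without. In HCT116 the medians were 0.02 over 1140 genes with the element and 0.04 over 8981 without. Of the 22 MYC-induced list genes with a window, 6 held the element, and of the 6 MYC-repressed genes with a window 1 did. The share over all genes with a window, given above, was 7.73%, but it includes genes not measured here. The list genes were nearly all measured, so the 1140 with and 8826 without in SW480 are the closer base. No enrichment was tested.

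Cofactors and regulators of MYC differed little. Of 15 cofactor genes, 5 lay above NC in SW480 (median -0.06), where 38.8% of all genes did, and 7 in HCT116 (median -0.01), where 60.8% did. With median-of-ratios factors 7 lay above NC in SW480, where 54.2% of all genes did, and 2 in HCT116, where 48.7% did. ACTL6A, a subunit of chromatin remodelling complexes, was the cofactor with a log2 ratio past 0.32 in size, at 111 TPM in SW480 with USP51 and 147 TPM in SW480 NC. At that size 6.25% of all 12175 genes were lower in SW480, so 1 of 15 was near the share of all genes. Of 15 measured genes that act on the stability of MYC protein, 6 lay above NC in SW480 (median -0.04) and 10 in HCT116 (median 0.05). Among 7 alternatives, 3 gave a median above 0 in SW480, of at most 0.03, and 1 gave a median below 0 in HCT116, of -0.01. That one, with median-of-ratios factors, measured 16 genes and put 11 of them above NC in SW480 and 7 in HCT116. The shares of all genes were then 54.2% and 48.7%, as given above. The mitotic kinase gene PLK1 was the gene of this list with a log2 ratio past 0.32 in size, at 128 TPM in SW480 with USP51 and 166 TPM in SW480 NC. That was again 1 of 15 measured, near the 6.25% of all genes. FBXW7, the ubiquitin ligase subunit that marks MYC for degradation, was at 5.44 TPM in SW480 with USP51 and 5.18 TPM in SW480 NC. In HCT116 FBXW7 was at 9.15 TPM with USP51 and 8.71 TPM in NC.

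Partners of the repressors also had log2 ratios under 0.32 in size in both lines. Of 10 SIN3 and histone deacetylase complex genes, which serve MXD proteins and MNT, 2 lay above NC in SW480 (median -0.04, the same as that of all genes) and 9 in HCT116 (median 0.09, against 0.04 for all genes). Over all genes 38.8% lay above NC in SW480 and 60.8% in HCT116. The count of the 10 in SW480 turned with the scaling, to 6 in CPM and 8 with median-of-ratios factors. In HCT116 7 lay above NC under both. Of all genes, 50.2% lay above NC in SW480 and 54.7% in HCT116 in CPM. With median-of-ratios factors 54.2% and 48.7% did. The median of the 10 in SW480 changed sign under 3 of 7 alternatives and was at most 0.02. Of 10 genes of the Polycomb complex that MGA joins, 1 lay above NC in SW480 (median -0.14) and 6 in HCT116 (median 0.03). The count and median in HCT116 were near those of all genes (60.8%, median 0.04). With median-of-ratios factors 2 lay above NC in SW480 (median -0.05) and 3 in HCT116 (median -0.02). MGA itself lay below NC in SW480, and by less with curated transcripts alone, as given above.

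**Figure D4:**
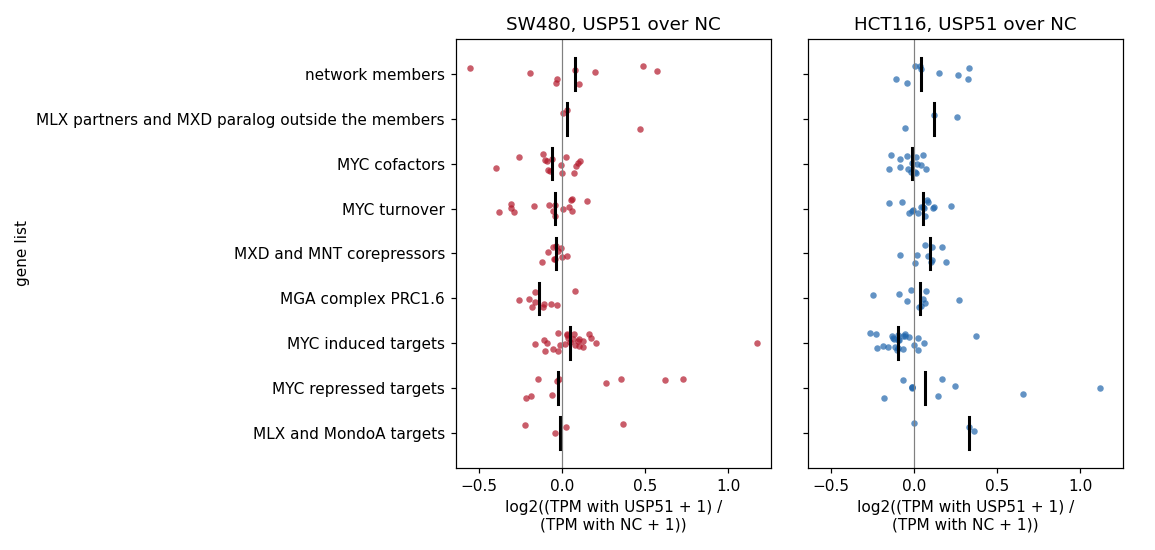
Log2((TPM + 1)/(TPM + 1)), USP51 over NC, of each measured gene of 9 lists in SW480 (left) and HCT116 (right), with 1 point per gene and a black bar at the median of the list. Points are spread vertically only for visibility. MYC-induced genes have medians of 0.05 in SW480 and -0.10 in HCT116, and the isolated points at the right are CCND2 in SW480 and NDRG1 in HCT116.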

How the data were processed

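Messenger RNA was sequenced from 12 libraries in 4 groups. The submitters' processing notes name TopHat, DESeq (version 1.32.0) and the hg38 build without saying what each did. The counting tool and any use of strand are not stated in the sources used. The authors deposited, per the file headers, estimated counts (not divided by depth), TPM and FPKM, as group means of 84345 RefSeq transcript rows. The 36 columns of single libraries have codes that match no label and were not used. Rows were summed per gene identifier, and 17672 of 17818 identifiers had a symbol in the RefSeq table of GRCh38.p14. Log2 ratios used a pseudocount of 1 and genes of at least 1 TPM in either group (Python 3.11.15, pandas 2.3.3). Ratios of counts rounded to whole numbers carry 95% exact binomial intervals (Clopper-Pearson, given the sum of both counts, SciPy 1.17.1). Their code was checked on simulated counts that held counting error only. That check says nothing on means of estimated counts or on the spread between libraries. These intervals hold the counting error of reads alone, because only group means were used. Reads copied by PCR are not separate molecules, and the intervals make no allowance for that. Size rules of 1.5-fold and of a log2 ratio of 0.32 replace tests.

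Members and lists were chosen with earlier results of these data known. The text names all members, USP51, up to 4 genes per list with the largest log2 ratio of at least 0.32 in size, and the 3 genes most like MYC; other named genes were chosen after their values were seen. Promoter windows come from RefSeq and exons from GENCODE 29.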

Additional observations from a re-analysis of the deposited data

Results flagged for a closer look

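The ratio of MYC with USP51 over NC lay on opposite sides of 1 in the lines, with counting intervals that exclude 1 in each. In HCT116 the log2 ratio was only the 1644th lowest of 12393 genes, and the intervals hold no replicate spread. The log2 ratio was 0.57 in SW480 and -0.11 in HCT116, a difference of 0.69. This rests on 1 mean per group, and the difference was not tested against the spread between libraries.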

How the results depend on the processing

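The columns of single libraries match no label and were not used, so the edgeR tests and leaving out replicates were not run. No paired analysis was possible because the columns carry no replicate number that matches a label. The directions of MYC, MXD3 and MXD4 in SW480 were the same under all 7 alternatives, with log2 ratios of 0.57 to 0.64 for MYC, -0.57 to -0.41 for MXD3 and 0.46 to 0.67 for MXD4. MYC passed 1.5-fold in CPM (0.62), with median-of-ratios factors (0.64) and in FPKM (0.62), and MXD4 passed it in CPM (0.64), with those factors (0.65) and with a pseudocount of 0.1 (0.67). In HCT116 the members with a log2 ratio of at least 0.32 in size were 2, but 1 with median-of-ratios factors and 0 in FPKM. Of all genes 8.58% were higher and 1.11% lower at that size in the main setting. The share under the other settings was not taken at that size, so the members' counts cannot be set against it. With curated transcripts alone MNT was 0.00 in SW480, -0.11 in HCT116 and -0.16 between the NC groups, in place of 0.20, 0.03 and 0.03. MGA was then -0.09 in SW480 and -0.004 between the NC groups, in place of -0.19 and 0.06. The quotient of repressor and MYC family levels with curated transcripts alone was 0.201 in SW480 with USP51, 0.358 in SW480 NC, 0.417 in HCT116 with USP51 and 0.348 in HCT116 NC, with the same order in each line. With MXD3 left out, an alternative chosen after seeing the data, it was 0.161, 0.222, 0.209 and 0.176 in those groups, also with the same order. The genes past 1.5-fold numbered 172 in SW480 and 261 in HCT116. In FPKM they were 109 and 159, with a pseudocount of 0.1 they were 375 and 552, at a log2 ratio of 0.32 in size 1065 and 1200, and at 2-fold 24 and 35. Between the NC groups they were 6472, and 3654 at 2-fold. In SW480 the split was 65 higher and 107 lower, and it was 115 and 116 in CPM, 127 and 109 with median-of-ratios factors and 50 and 59 in FPKM. The cause was not tested. Depth limits MYCN (at most 2 mean counts), MXD4 in SW480 (118 with USP51 and 69 in NC) and, in HCT116, MXD1 (152 and 115) and MYCL (137 and 107).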
